A study of Homo sapiens with 172 samples.

Results

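The type I interferon genes and the CDKN2A tumour suppressor genes lie next to each other on the short arm of chromosome 9, and their contact with the nuclear lamina was followed here in single cells. The members were 9 genes in a pair of windows, and the windows were chosen by position. The interferon window, bins 21000001 to 21500000, runs from IFNB1 to IFNE and also spans IFNW1, IFNA1, IFNA2 and IFNA8. The CDKN2A window, bins 21800001 to 22100000, holds MTAP, CDKN2A and CDKN2B. Together they make 8 bins of 100 kb out of 26414 covered bins in the genome, 5 in the interferon window and 3 in the CDKN2A window, and the other 52 bins from 19000001 to 25000000 served for comparison. All bin positions are in hg19, and the stretch is on the joined chromosome that the table calls 9:22, where positions equal those of chromosome 9.

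The cells were of KBM7, a line from a human myeloid leukaemia with a nearly haploid genome, and all 172 labelled samples formed 1 group, haploid (1N) cells of clone 5-5 carrying a fusion of Dam methyltransferase with LaminB1. The fusion marks GATC in DNA near the lamina, a protein mesh that lines the inside of the nuclear envelope, and DpnI-cut fragments are amplified and sequenced. Every cell had 15 h of 0.5 nM Shield1, which stabilises the fusion, and was sorted as one of the smallest 2% among cells that carried both Fucci cell cycle markers. With 1 clone, 1 treatment and no second group there was no comparison of conditions and no p-value, since cells are not replicates of a condition. No sample with Dam alone was analysed here. Each of the 168 columns analysed correlated best with the column 86 numbers away, so these pairs were taken as 1 cell each and averaged, which gave n = 84. SDs are taken over cells and measure how cells varied, not replicate error. The deeper of a cell's columns held a median of 63700 reads, the shallowest cell having 7134 and the deepest 418937.

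Type I interferons are secreted antiviral proteins that act through a shared receptor. Most of their genes are kept silent in most cells until a virus is sensed, when IRF transcription factors switch them on. IFNB1 is among the first to respond, the IFNA genes encode a family of close relatives, IFNW1 encodes interferon omega, and IFNE encodes an interferon of the reproductive tract epithelium. CDKN2A and CDKN2B encode inhibitors of the kinases that drive cells out of G1, CDKN2A also encodes ARF from another promoter, and MTAP encodes an enzyme that salvages methionine and adenine. Lamina-associated domains are known as mostly gene-poor, inactive chromatin. Whether the genes of this locus were transcribed in these cells was not measured.

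The genes differ in their promoters. The sequences below are the 250 bases before the start, from RefSeq in GRCh38.p14, a build other than that of the bins, so their coordinates were not set against the bins. They are shown because IFNB1 and IFNA1 stand for the interferon promoters and CDKN2A and CDKN2B for the CpG-rich ones. The CDKN2A sequence is its ARF-side promoter, with 2 GATC, and the downstream promoter of CDKN2A, not shown, had 0. In the first pair capitals mark AANNGAAA, a core to which IRF factors bind, on either strand. In the second pair they mark GATC, the target of Dam.

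IFNB1, chr9:21077943-21078192, minus strand: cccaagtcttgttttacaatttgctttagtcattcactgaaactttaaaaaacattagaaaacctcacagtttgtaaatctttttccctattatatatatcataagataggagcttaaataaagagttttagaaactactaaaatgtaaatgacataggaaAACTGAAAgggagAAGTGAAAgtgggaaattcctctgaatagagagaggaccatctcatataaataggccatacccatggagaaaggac
IFNA1, chr9:21440189-21440438, plus strand: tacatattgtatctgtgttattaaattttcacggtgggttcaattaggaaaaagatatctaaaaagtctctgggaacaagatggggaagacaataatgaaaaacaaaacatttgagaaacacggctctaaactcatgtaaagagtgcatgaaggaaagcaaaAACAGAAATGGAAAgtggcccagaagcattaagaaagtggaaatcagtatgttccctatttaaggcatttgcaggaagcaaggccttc
CDKN2A, chr9:21995325-21995574, minus strand: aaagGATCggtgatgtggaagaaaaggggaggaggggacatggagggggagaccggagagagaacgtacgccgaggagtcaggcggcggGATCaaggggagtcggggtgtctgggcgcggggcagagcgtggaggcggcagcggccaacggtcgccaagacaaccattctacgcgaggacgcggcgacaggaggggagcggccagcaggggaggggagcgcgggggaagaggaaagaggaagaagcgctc
CDKN2B, chr9:22009306-22009555, minus strand: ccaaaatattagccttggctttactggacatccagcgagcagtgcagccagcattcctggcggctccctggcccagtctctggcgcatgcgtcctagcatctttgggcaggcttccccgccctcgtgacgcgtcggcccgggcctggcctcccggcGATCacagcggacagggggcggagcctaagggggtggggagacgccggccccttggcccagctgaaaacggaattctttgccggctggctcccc

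From IFNB1 to IFNE the table lists 16 coding interferon genes and 1 other coding gene, KLHL9, which encodes an adaptor of a ubiquitin ligase. Of the 16, 13 had a promoter in the RefSeq table, and IFNW1, IFNA6 and IFNA16 are named only. AANNGAAA, searched on both strands, was present in 11 of these 13 promoters and in 20.3% of all 35116 promoters of the same length. IFNB1 had 2 matches, and IFNA1 also had 2, which overlap. IFNA2 and IFNE had none. In the 4 promoters of MTAP, CDKN2A and CDKN2B the motif had 0 matches. CpG dinucleotides numbered 0 to 2 in the interferon promoters (median 1), against 11 in MTAP, 24 and 20 in the ARF-side and downstream promoters of CDKN2A and 18 in CDKN2B, with a median of 11 over all promoters. GATC was present in 1 of 13 interferon promoters, that of IFNA5, in 3 of the 4 others and in 35.8% of all promoters. The promoters thus differed between the windows, with at most 2 CpG in the interferon promoters and at least 11 in the others. MTAP, at 11, was at the median of all promoters. A match of these letters is a description only.

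**Figure D1:**
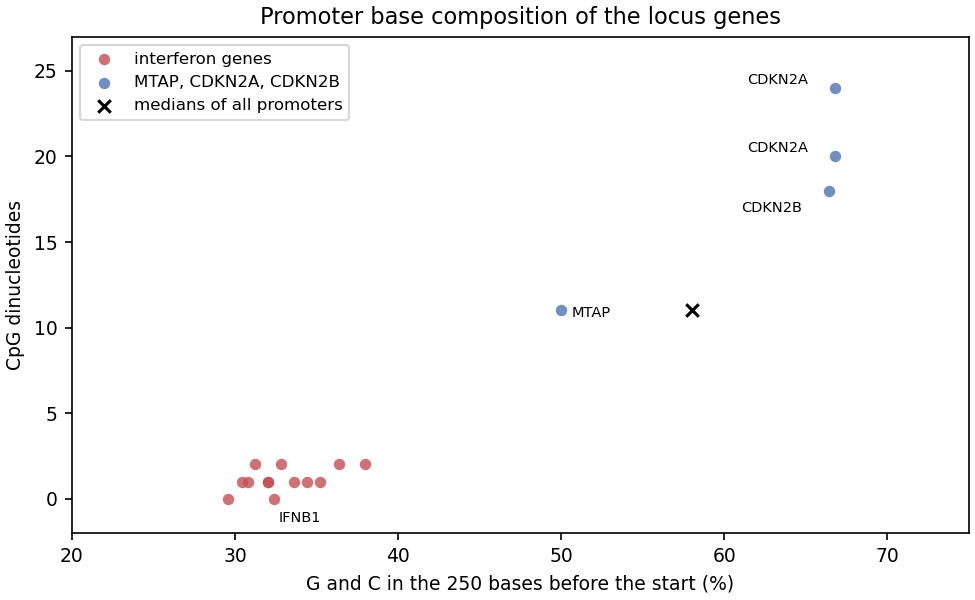
G and C content (percent, x axis) against the number of CpG dinucleotides (y axis) in the 250 bases before the start of 13 interferon genes (red), of MTAP, CDKN2A (2 promoters) and CDKN2B (blue), with the medians of all promoters as a cross. The interferon promoters lie between 29.6 and 38.0% with at most 2 CpG, and the others between 50.0 and 66.8% with 11 to 24.

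Both windows met the lamina in few cells. A bin was called in contact in a cell at an observed over expected ratio of at least 1, and its contact frequency is the percent of the 84 cells in contact, with an exact Clopper-Pearson 95% interval that covers counting error only. The interferon window had a mean contact frequency of 8.10% over its 5 bins, and the CDKN2A window one of 1.59% over its 3 bins. All 8 bins stayed under a frequency of 20%, as did 52.3% of all covered bins. Under 5% were 4 of the 8, against 36.7% of all covered bins. None of the 8 reached 50%, as 30.7% of all covered bins did. The median over all covered bins was 16.7%, and the highest bin of the windows, 21400001 to 21500000, was at this level. Over the covered bins of the joined chromosome 9:22 the median was 9.52%. Interferon bins 21200001 to 21300000 (11.9%) and 21400001 to 21500000 (16.7%) lay above that. The means of both windows thus lay below the median of a genome in which low contact is common.

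Between them, however, stood a block of more frequent contact. The 3 bins from 21500001 to 21800000 had a mean frequency of 48.8%, with 58.3% (interval 47.1 to 69.0%) in the middle bin. The bins beside it, at 48.8 and 39.3%, stayed under 50%, a level that 30.7% of all covered bins reached. In the gene order of the RefSeq table no coding gene lies between IFNE and MTAP. The 6 entries there are MIR31, a snoRNA, 3 pseudogenes and 1 long non-coding RNA. This order is by gene start, so MIR31HG, which comes before IFNE, is not among the 6, wherever it ends. A block of 0.3 Mb thus separated a pair of low-contact gene windows.

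**Figure D2:**
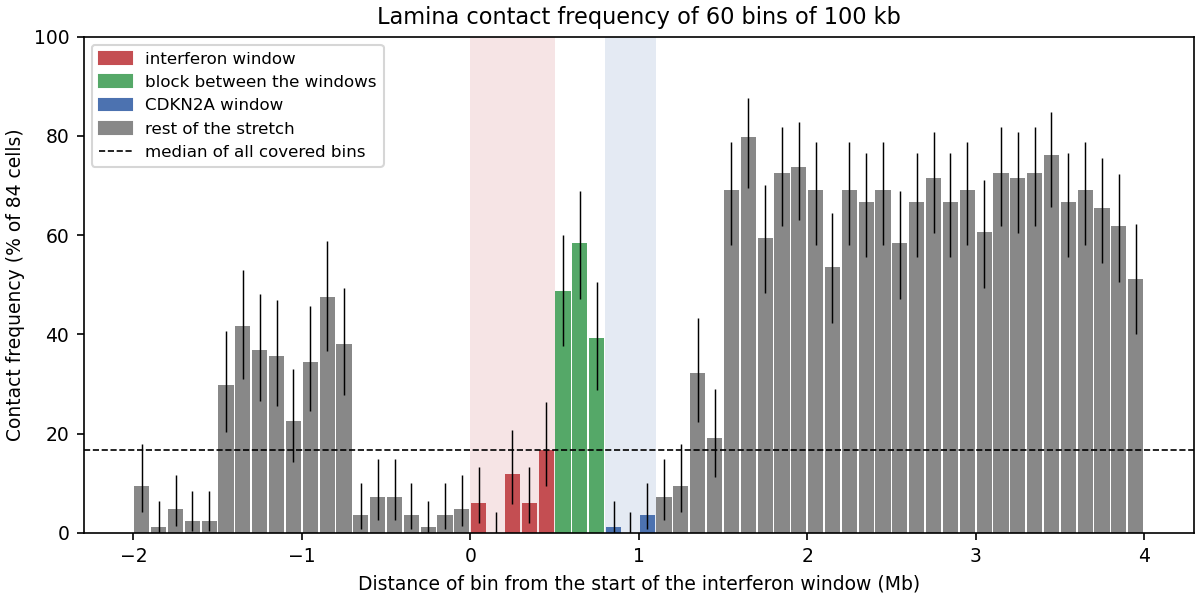
Contact frequency (percent of 84 cells, y axis) of 60 bins of 100 kb against the distance of the bin from the start of the interferon window (Mb, x axis), with exact 95% intervals as lines and the median of all covered bins, 16.7%, as dashes. The interferon window (red) and the CDKN2A window (blue) lie low on either side of the block between them (green), which reaches 58.3%.

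Within the interferon window the bins were not alike. The first bin, 21000001 to 21100000, at the IFNB1 end of the gene order, was in contact in 5 of 84 cells (5.95%, interval 1.96 to 13.3%). Its ratio was 0 in 64 cells and 3.65 at the highest. The second, 21100001 to 21200000, was in contact in 0 of 84 cells, and its highest ratio was 0.926. A count of 0 allows a frequency of up to 3.57% by the rule of 3 counts, and its exact two-sided interval is 0 to 4.30%. Contact at the IFNB1 end was thus rare, and in the second bin no cell reached the cutoff.

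The next bin, 21200001 to 21300000, was in contact in 10 cells (11.9%, interval 5.86 to 20.8%), with ratios from 0 to 3.32 and a median of 0. It also had the lowest expectation of the window, 1.46 reads at a ratio of 1 in the median cell where the others had 1.98 to 2.46, so that fewer reads make a contact there. Bin 21300001 to 21400000 was in contact in 5 cells (5.95%), and its highest ratio, 7.49, was in cell 19, the shallowest of all. The interval of bin 21200001 to 21300000 lies above that of the second bin, while all other intervals among these 4 bins overlap.

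The last bin, 21400001 to 21500000, at the IFNE end, was the highest of the window with 14 cells (16.7%, interval 9.42 to 26.4%). Its ratio was 0 in 41 cells, had a median of 0.0827 and reached 3.54. Its interval does not overlap that of the second bin either, but overlaps those of the other 3. It also lies entirely below that of the next bin, 21500001 to 21600000, which was in contact in 41 cells (48.8%, interval 37.7 to 60.0%). The interferon cluster therefore ended in a step, from 14 to 41 cells within 1 bin, and the IFNE end was the side that adjoined it. The level of this bin was 25.7% among the 35 cells with at least 100000 reads, 21.8% among those numbered 30 to 86 and 6.90% among those numbered 1 to 29, and the part of depth in this was not tested.

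The CDKN2A window was lower still. Its first bin, 21800001 to 21900000, at the MTAP end of the gene order, was in contact in 1 of 84 cells (1.19%, interval 0.0301 to 6.46%). The middle bin, 21900001 to 22000000, was in contact in 0 of 84 cells (interval 0 to 4.30%), and its highest ratio was 0.741. The last bin, 22000001 to 22100000, was in contact in 3 cells (3.57%, interval 0.743 to 10.1%), with a highest ratio of 2.39. The median ratio was 0 in each of these bins, and the intervals overlap.

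At the MTAP side few runs of contact crossed into the window. The last bin of the block between the windows, 21700001 to 21800000, was in contact in 33 cells (39.3%, interval 28.8 to 50.5%), and the next bin in 1. In 32 of these 33 cells the run of contact stopped at that edge, and in cell 48 it went on for 1 bin, or 3.03% of the runs (exact interval 0.0767 to 15.8%). Towards IFNE, the run went on in 10 of 41 cells (24.4%, interval 12.4 to 40.3%), for up to 3 bins in cells 28 and 48. The intervals of these shares overlap, and their difference was not tested.

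In 4 further cells the IFNE-side bin was in contact although its neighbour in the block was not. Of its 14 cells in contact, 10 thus had the neighbour in contact too, as had 48.8% of all cells.

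**Figure D3:**
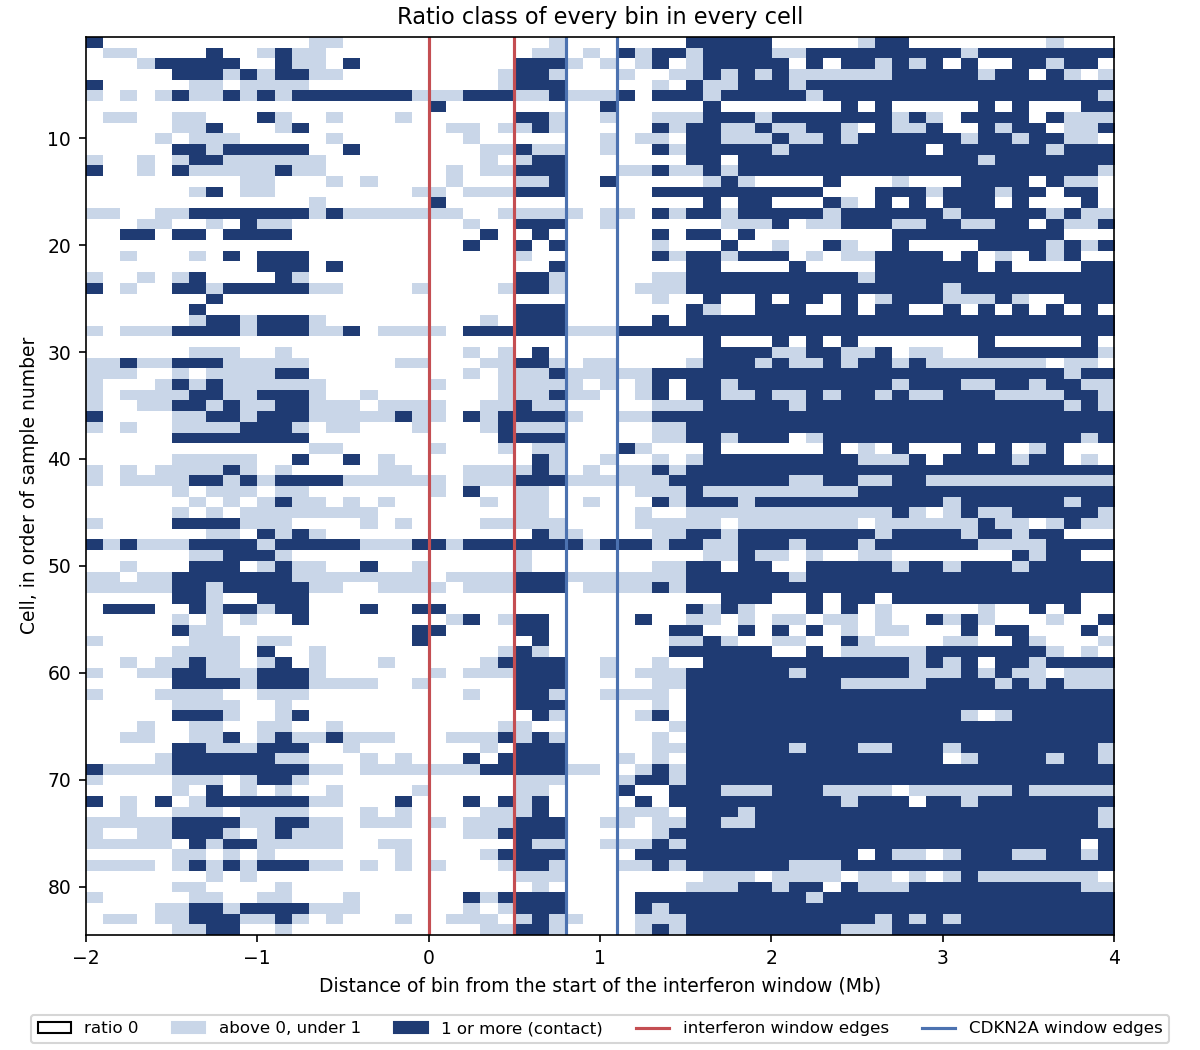
Ratio class of each of 60 bins (x axis, distance from the start of the interferon window in Mb) in each of 84 cells (y axis, cells in order of sample number), with white for a ratio of 0, light blue for values under 1 and dark blue for contact. Dark fields make up 48.8% of the block between the red and blue window edges and 67.3% of the block on the right. The columns of the CDKN2A window hold 4 dark fields, 2 of them in cell 48.

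The windows were also read within each cell. At least 1 bin of the interferon window was in contact in 22 of 84 cells (26.2%, interval 17.2 to 36.9%), and at least 1 bin of the CDKN2A window in 3 cells (3.57%, interval 0.743 to 10.1%). The share of interferon bins in contact was above that of the CDKN2A bins in 21 cells and below it in 2, and in 61 cells both were 0. The mean difference, interferon minus CDKN2A, was 6.51 ± 14.9 percentage points (SD over cells, n = 84), which is smaller than the spread between cells. No cell had all bins of either window in contact.

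Contact in most bins of a window was rarer. It was found for the interferon window in 3 cells, numbers 6, 28 and 48, and for the CDKN2A window in cell 48 alone. In 81 of 84 cells neither window had it. Cell 48 had 4 of 5 interferon bins and 2 of 3 CDKN2A bins in contact, and its genome-wide share of bins in contact, 39.3%, was the second highest. Cell 28, at 39.1%, was among the highest too, and its mean ratio over the CDKN2A window was 0.787 without any bin at the cutoff.

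The other cells with contact in the CDKN2A window, numbers 7 and 14, had 1 bin each and only 11042 and 29632 reads in their deeper column. Without cell 48 the mean frequency of the CDKN2A window was 0.803% in place of 1.59%, so that 1 cell made up 2 of its 4 contact calls. That of the interferon window was 7.23% without it. Genome-wide contact share had a median of 26.0% in the 22 cells with interferon contact and 27.9% in the 62 without, and both sets spanned much of the range over cells, from 14.5 to 39.3% and from 14.9 to 42.4%.

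Mean ratios per cell gave the same order without a cutoff. Over the 84 cells the interferon window had a mean ratio from 0 to 1.87 with a median of 0.151, and 5 cells at 1 or more. The CDKN2A window had one from 0 to 1.15 with a median of 0, and 1 cell at 1 or more, cell 48. The block between them had one from 0 to 5.04 with a median of 1.27, and 45 cells at 1 or more. The 3 ranges overlap, and all of them start at 0.

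**Figure D4:**
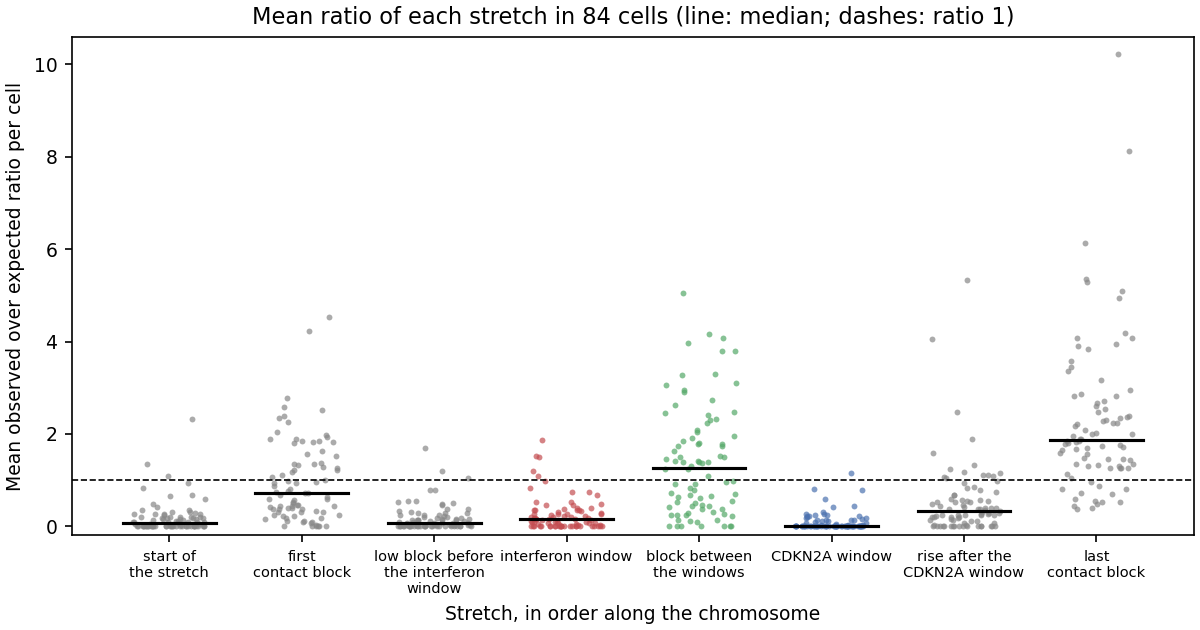
Mean observed over expected ratio per cell (y axis, linear) for 8 consecutive stretches (x axis) in 84 cells, each point a cell and each line a median, with dashes at a ratio of 1. The median is 0.151 in the interferon window and 0 in the CDKN2A window, against 1.27 in the block between them and 1.87 in the last contact block.

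Depth limits what a low value means. Within a bin the ratios were whole multiples of 1 step, within 0.02 of a read for all but 3 values above 0 in the table, so read numbers could be worked back. Reads expected at a ratio of 1 were worked out from a cell's total reads and the steps of the bins. They only approximate the expectation behind the deposited ratios. By this count the median cell would have 10.7 reads in the interferon window and 6.57 in the CDKN2A window. A single interferon bin would have 1.46 to 2.46 and a CDKN2A bin 2.01 to 2.40. In their deeper columns the cells had 491 interferon reads in all, with 0 in 29 cells, and 97 CDKN2A reads, with 0 in 58 cells. Of the 34 contact calls in the interferon window 7 rested on at most 1 read (20.6%), and of the 4 in the CDKN2A window 1 did, against 6.79% of calls over all covered bins. The interferon calls thus rested on at most 1 read in a larger share of cases than calls over the genome, and without molecular identifiers such reads cannot be counted as separate molecules.

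The windows were also low in the deepest cells. In the 35 cells with at least 100000 reads, the CDKN2A window had 0 reads in 21 cells, a median of 0 and at most 26, where 10.5 to 43.2 were expected at a ratio of 1. The total was 71 reads against 713 expected, and in no cell were reads above this expectation. It does not equal the deposited ratio of 1 in each cell. Cell 48 had 26 reads where 27.3 were expected, but a mean ratio of 1.15 in the CDKN2A window. The interferon window had 0 to 90 reads with a median of 6, where 17.0 to 70.2 were expected, a total of 409 against 1158, and was above the expectation in 1 cell, number 48. Both windows were thus low where at least 10.5 and 17.0 reads would make a ratio of about 1.

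The block between the windows had 2 to 139 reads in the same cells, with a median of 28 where a median of 20.9 was expected. It was above this expectation in 22 of 35 cells. Among these, cells 32, 76 and 85 had mean ratios under 1 there, of 0.922, 0.914 and 0.965. Cell 48 alone gave 26 of the 97 CDKN2A reads over all cells, and 26 of 84 cells had any. The copy number of the locus was not measured, and fewer copies and less methylation cannot be told apart by these reads alone. On the joined chromosome 9:22 the cells numbered 79, 11 and 45 had the lowest shares of their reads, 30.1, 39.6 and 42.2% of the median share over cells. Without these 3 cells the mean frequency was 8.40% in the interferon window, 1.65% in the CDKN2A window and 50.2% in the block between them.

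**Figure D5:**
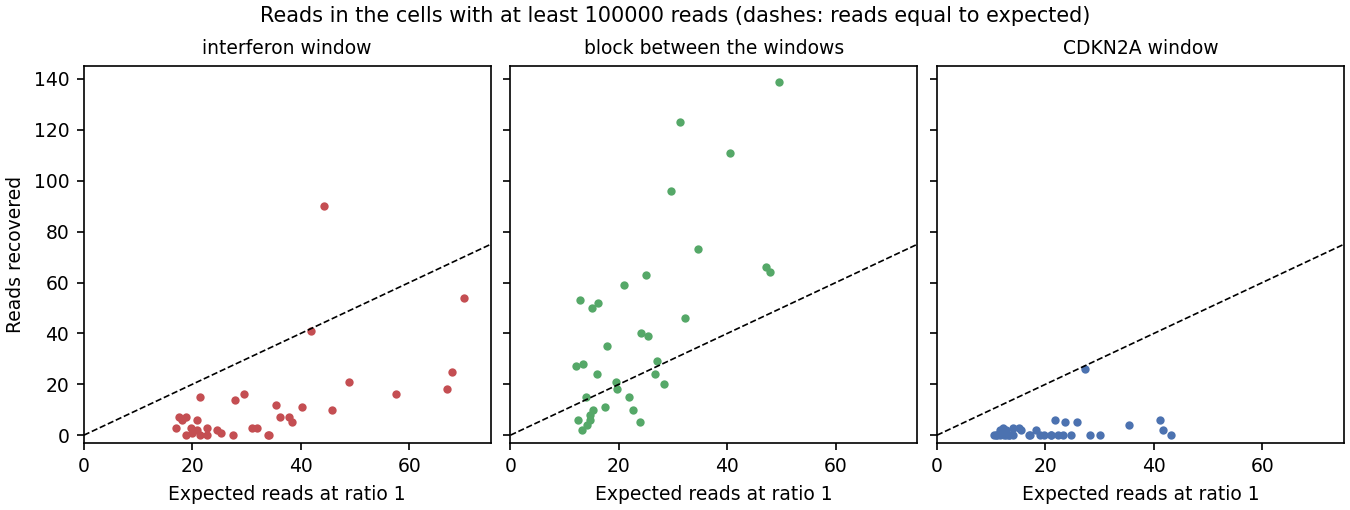
Reads recovered (y axis) against the reads expected at a ratio of 1 (x axis) in the 35 cells with at least 100000 reads, for the interferon window, the block between the windows and the CDKN2A window, each point a cell and dashes at equality. Expected reads were worked out from each cell's total reads and only approximate the deposited ratio of 1. Of 35 cells 1, 22 and 0 lie above the dashes, respectively.

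Next to the windows, low and frequent contact alternated over short distances. Before the interferon window, 7 bins from 20300001 to 21000000 had a mean frequency of 4.42%, so that the interferon window formed the end of a low run of 12 bins, 20300001 to 21500000, with a mean of 5.95%. In the gene order MLLT3, which encodes a chromatin reader that recruits transcription elongation factors, FOCAD and HACD4 precede IFNB1, but none of them was placed in a bin. Before this run lay a first block of contact, 19500001 to 20300000, with a mean of 35.9% over 8 bins and none at 50%.

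After the CDKN2A window came 4 bins, 22100001 to 22500000, called the rise here, with a mean of 17.0%. Their frequencies were 7.14, 9.52, 32.1 and 19.0% in order, so the increase was not steady. Contact reached 69.0% in bin 22500001 to 22600000 and 79.8% (67 of 84 cells, interval 69.6 to 87.7%) in bin 22600001 to 22700000, the highest of the stretch. From there contact stayed at 50% or more through 25100000, with a mean of 67.1% over 26 bins. The lowest bins of the rest of the stretch, 19100001 to 19200000 and 20700001 to 20800000, were each in contact in 1 cell. In the gene order CDKN2B is followed by DMRTA1 and ELAVL2, which encode a transcription factor of the doublesex family and a neuronal RNA-binding protein, with no other coding gene between CDKN2B and ELAVL2. The CDKN2A genes thus lay between contact at 48.8% directly on one side and, beyond the 4 bins of the rise at 17.0%, at 67.1% on the other.

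The CDKN2A window was part of a low run of 5 bins, 21800001 to 22300000, with a mean frequency of 4.29%, counting consecutive bins under 20%. Within 3 bins of it the highest frequency was 58.3% on the IFNE side and 69.0% on the far side. Of 703 low runs of at least 3 bins in all covered bins, 111 (15.8%) had a bin at 50% or more within 3 bins on both sides, so a low island between contacted flanks is not rare. The run that holds the interferon window was not among these, as its far side reached 47.6%, just under 50%.

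In order of mean frequency the 8 stretches were the CDKN2A window (1.59%), the first 5 bins (4.05%), the low block before the interferon window (4.42%), the interferon window (8.10%), the rise after the CDKN2A window (17.0%), the first contact block (35.9%), the block between the windows (48.8%) and the last contact block (67.3% over 25 bins). The exact intervals for the share of cells with any contacted bin overlap for the CDKN2A window (0.743 to 10.1%) and the first 5 bins (7.61 to 23.6%). They also overlap for the interferon window (17.2 to 36.9%) and the low block before it (11.3 to 29.1%), while those of the CDKN2A and interferon windows do not. The windows differ in their number of bins, which gives the interferon window more chances of a contacted bin.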

How the data were processed

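Cutadapt, Bowtie2 2.1.0 and the build hg19 are named per the submitters' processing notes. The deposited table gives the ratio of observed over expected reads per 100 kb bin, for 168 of the 172 labelled samples; what the authors built the expectation from is not given in the sources used here. Samples 81, 82, 167 and 168 are not analysed here. Of 30376 bins, 3792 were without a value and 170 at 0 throughout, and these were left out. Columns n and n + 86 were averaged as 1 cell. In contact meant a ratio of at least 1. Reads were worked back from the common step of each bin, and all but 3 of the values above 0 were whole within 0.02. The scripts were tested on simulated data. Python 3.11.15, scipy 1.17.1 and pandas 2.3.3 were used.

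The members, windows, gene lists and comparisons were chosen with earlier results of these data known, and the stretches outside the windows after seeing their values. Named were the 9 members, the other interferon genes of the short arm, fixed neighbours, every bin of both windows, and the highest and lowest bin of the rest. The 36 listed genes were all found in the RefSeq table of GRCh38.p14, which gave names, order and promoters only, so no gene was placed in a single bin. IFNK and TUSC1 lie outside the windows in that order and have no values here. Alternatives were other cutoffs, single columns, scaling, odd and even cells, wider windows and smoothing, with 8 added after seeing the data for the windows and all of them for the block between the windows.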

Additional observations from a re-analysis of the deposited data

How the results depend on the processing

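No paired analysis was possible because all samples are in the same group, so that no groups share replicate numbers. This concerns pairs between groups. The difference of the windows was taken within cells, as a description with no test. Of 90 values under 18 alternatives, 50 were added after seeing the data, among them all for the block between the windows. For means and their difference a move of over 1.5 times was counted, a bound also chosen after seeing the data, and for the share of cells a value outside its exact interval. By this count 70 of 90 values were near those reported. The CDKN2A window was the least stable, with 8 of its 18 values near and 10 moved. The difference, interferon minus CDKN2A, ran from 2.46 to 8.81 percentage points and stayed above 0.

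At cutoffs of 0.5, 1.5 and 2 the interferon window was at 16.0, 4.29 and 2.86%, the CDKN2A window at 7.14, 0.397 and 0.397%, and the block at 64.7, 36.1 and 28.6%. The difference was 3.89 points at 1.5 and 2.46 at 2. With 1 more bin on each side, which takes in the neighbouring stretches, the interferon window was at 13.4%, the CDKN2A window at 10.2%, the difference at 3.20 points and the block at 32.9%. The CDKN2A window was at 3.57% in the lower-numbered columns alone, 4.76% with a running mean over 3 bins and 0.794% both in odd-numbered cells and with calls of at least 3 reads. Without cell 48 it was at 0.803%, and without cells 48, 54 and 56 at 0.823%. Cells with most bins of neither window in contact, 96.4% as reported, were 89.3% at a cutoff of 0.5 and 100% among odd-numbered cells. The cause of the moves with columns and odd-numbered cells was not tested. Cells 63, 69 and 79, whose lowest chromosome held 6.93, 3.67 and 20.8% of the median share of reads, left the CDKN2A window at 1.65% when taken out. In the bins of both windows a ratio of 1 stands for about 1.46 to 2.46 reads in the median cell.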

Other observations

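Contact of the stretches outside the windows was also counted cell by cell, as a description of 84 cells that share 1 clone and differ in depth. A stretch counted as in contact where most of its bins were. The first contact block and the block between the windows lie on either side of the low run that holds the interferon genes. The block between the windows was in contact in 70.4% of the 27 cells with the first block in contact and in 33.3% of the other 57, with a correlation over cells of 0.35. The block between the windows and the last contact block, which lie on either side of the CDKN2A genes, were both in contact in 30 cells and neither was in 18, with a correlation of 0.19. Of the 38 cells with the block between the windows in contact, 26 had all 3 of its bins in contact. By the same count, neither the interferon window nor the CDKN2A window was in contact in 81 of 84 cells.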
